A study of Mus musculus with 4 samples.

Results

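The genes described here drive cells through S phase, in which DNA is copied, and through G2 and mitosis, together with the cyclins that act in G1 and the proteins that hold cyclin-dependent kinases back. The list held 39 genes in 4 groups. A gene was found through a probe set carrying its symbol alone, and where several did, the one with the highest average of the 4 arrays stood for it. By this rule 37 of the 39 were found, among 19938 named genes in all: 10 of 10 for S phase and replication, 20 of 21 for G2 and mitosis, 4 of 4 for the G1 cyclins with E2f1, and 3 of 4 inhibitors. Ccnb1 had no probe set of its own in the gene table, and the probe set of Cdkn1a carried 2 symbols, so neither has a value here. The tissue was the pontine nucleus of ICR mice, whose labels name no transgene or treatment. It was taken before birth at embryonic day 17.5, written E17.5, and at days 1, 5 and 14 after birth, written P1, P5 and P14. Dissected nuclei were pooled, 27 mice at E17.5, 16 at P1, 13 at P5 and 12 at P14, and each pool went onto a single Affymetrix array. With 1 array per age, no spread between pools could be measured and no difference below was tested.

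A dividing cell loads the MCM helicase onto its DNA in G1, copies the DNA in S phase with help from the sliding clamp PCNA and a supply of deoxynucleotides, and then segregates the copies with a spindle built under the control of CDK1, Polo and Aurora kinases. D- and E-type cyclins release E2F factors from the retinoblastoma proteins and so open the way to S phase, while the Cip/Kip and INK4 inhibitors restrain the kinases and help neurons to stay out of the cycle. Pontine neurons arise at the rhombic lip and reach the ventral pons as postmitotic cells, so that in the nucleus itself division is mainly a property of glial and vascular cells and their progenitors.

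By likeness, the labelled ages were out of sequence. Over the 19938 named genes, Pearson's r with E17.5 came to 0.991 (P1), 0.978 (labelled P14) and 0.946 (labelled P5), so the P5 array stood farthest away. Mog, a protein of mature myelin, had a log2 signal of 12.91 with the P5 label and 8.27 with the P14 label, beside 7.18 (E17.5) and 7.39 (P1). The labels were kept and these arrays are called by them throughout. Whether these 2 labels are exchanged was not tested, and if they were, each statement on P5 would be one on P14 and the reverse. The comparison that uses neither of them is P1 against E17.5. The pontine neuron gene Barhl1 read 12.23, 11.79, 10.83 and 11.61, in the order E17.5, P1, P5, P14 that is kept below. The vesicular glutamate transporter Slc17a6 read 11.44, 11.17, 11.57 and 11.49. Both lay above 8.41, the median of single-symbol probe sets, on every array. Slc17a7, next in the same list of 12 pontine neuron genes, read 8.16, 9.38, 12.90 and 11.36, below 8.41 at E17.5. Of that list, 9 genes had a mean level at or above 8.41. Array medians over all probe sets lay between 7.89 and 7.94. All levels below are log2 signals and all differences are on the log2 scale, where 1 is a 2-fold difference. Background was not measured, and 20 of the 37 members had a mean level at or above that median (7 of the S phase and 8 of the mitosis genes). Apart from these placings, a level is set only against the same probe set on another array. Comparisons with E17.5 share that array.

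S phase and mitosis genes are known to be switched through different promoter elements: E2F sites for many replication genes, and for many mitosis genes the cell cycle genes homology region, CHR, often beside CCAAT boxes bound by NF-Y. Since the members of both groups shared their lowest array, stretches of 10 promoters are shown, each the 200 bases before the annotated start, 5′ to 3′ on the gene's strand, from RefSeq on GRCm38.p6. The first 4 are S phase genes, the 3 with the most negative differences on the P5 array and Mcm5. Capitals in these 4 mark E2F sites (TTCGCGC or TTGGCGC) and NF-Y boxes (CCAAT) on either strand. On the reverse strand an E2F site reads GCGCGAA or GCGCCAA and an NF-Y box ATTGG, and neighbouring E2F matches can overlap in 1 run of capitals. They lie at chr8:75109309-75109508 on the plus strand (Mcm5), chr1:128359706-128359905 on the minus strand (Mcm6), chr5:138171884-138172083 on the minus strand (Mcm7) and chr12:24708054-24708253 on the plus strand (Rrm2).
Mcm5: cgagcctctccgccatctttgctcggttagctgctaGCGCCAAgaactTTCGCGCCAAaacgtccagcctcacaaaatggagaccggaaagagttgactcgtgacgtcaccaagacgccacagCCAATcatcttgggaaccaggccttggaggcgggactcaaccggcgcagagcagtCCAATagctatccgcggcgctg
Mcm6: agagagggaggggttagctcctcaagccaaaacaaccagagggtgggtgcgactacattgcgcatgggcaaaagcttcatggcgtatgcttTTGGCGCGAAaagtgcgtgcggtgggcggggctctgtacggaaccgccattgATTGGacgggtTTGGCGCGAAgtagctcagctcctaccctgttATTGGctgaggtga
Mcm7: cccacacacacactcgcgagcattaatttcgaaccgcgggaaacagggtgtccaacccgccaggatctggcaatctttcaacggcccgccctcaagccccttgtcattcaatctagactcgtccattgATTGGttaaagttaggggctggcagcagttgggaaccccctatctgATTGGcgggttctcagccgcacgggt
Rrm2: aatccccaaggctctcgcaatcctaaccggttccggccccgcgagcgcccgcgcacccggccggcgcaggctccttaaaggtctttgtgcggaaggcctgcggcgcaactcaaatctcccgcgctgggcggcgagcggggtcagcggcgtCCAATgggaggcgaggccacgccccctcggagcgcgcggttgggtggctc
Mcm5 held 3 E2F matches and 2 CCAAT boxes in this stretch, and Mcm6 held 4 and 2. Mcm7 showed 2 CCAAT boxes, its 2 overlapping E2F matches lying after the start and so outside the stretch printed, and Rrm2 showed 1 CCAAT box with no E2F match.

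The other 6 are mitosis genes, with capitals on CHR (TTTGAA, or TTCAAA on the reverse strand) and NF-Y boxes. Mki67, Top2a and Prc1 are among those furthest below P1 on the P5 array, Cdk1 stands near the middle, and Cdc20 and Ube2c lie closer to P1. Their positions are chr7:135716380-135716579 on the minus strand (Mki67), chr11:99024190-99024389 on the minus strand (Top2a), chr10:69352913-69353112 on the minus strand (Cdk1), chr4:118437344-118437543 on the minus strand (Cdc20), chr2:164769729-164769928 on the plus strand (Ube2c) and chr7:80294276-80294475 on the plus strand (Prc1).
Mki67: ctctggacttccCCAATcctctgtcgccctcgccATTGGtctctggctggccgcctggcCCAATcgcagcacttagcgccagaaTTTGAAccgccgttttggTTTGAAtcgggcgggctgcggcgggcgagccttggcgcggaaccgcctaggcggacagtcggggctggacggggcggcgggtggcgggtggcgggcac
Top2a: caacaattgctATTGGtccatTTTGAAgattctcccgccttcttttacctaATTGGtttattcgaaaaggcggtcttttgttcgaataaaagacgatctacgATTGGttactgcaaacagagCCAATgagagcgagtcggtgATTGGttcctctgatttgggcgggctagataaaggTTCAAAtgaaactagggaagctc
Cdk1: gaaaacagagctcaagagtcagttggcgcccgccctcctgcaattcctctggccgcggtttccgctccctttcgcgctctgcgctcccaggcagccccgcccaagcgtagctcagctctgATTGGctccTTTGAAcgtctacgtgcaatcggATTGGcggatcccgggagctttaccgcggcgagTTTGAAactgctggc
Prc1: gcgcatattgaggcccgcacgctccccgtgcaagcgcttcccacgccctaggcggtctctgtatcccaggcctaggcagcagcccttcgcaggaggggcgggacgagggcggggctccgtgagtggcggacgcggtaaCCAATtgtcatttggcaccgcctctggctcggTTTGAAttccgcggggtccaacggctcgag
Cdc20: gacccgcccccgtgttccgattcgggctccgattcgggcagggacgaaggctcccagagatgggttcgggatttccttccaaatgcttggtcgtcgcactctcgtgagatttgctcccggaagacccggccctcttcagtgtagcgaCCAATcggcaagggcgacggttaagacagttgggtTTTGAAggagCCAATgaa
Ube2c: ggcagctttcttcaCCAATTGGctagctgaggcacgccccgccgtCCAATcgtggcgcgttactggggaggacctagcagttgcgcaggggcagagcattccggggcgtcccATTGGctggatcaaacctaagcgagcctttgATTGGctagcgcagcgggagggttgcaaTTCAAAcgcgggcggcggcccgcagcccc
The first base of a CHR lay 15 and 71 bases before the start in Cdk1, 18 before it in Cdc20 and 29 before it in Ube2c. Top2a carried 5 CCAAT boxes and Mki67 carried 3. All 6 stretches held both motifs. Nusap1, at −0.83 from P1 on the P5 array, held neither in its promoter window and is not shown, so the genes shown do not stand for the whole group.

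The motifs were counted over windows of 300 bases, from 250 before to 50 after the start, which RefSeq's promoter table gave for 29 of the 37 members. Of the 17 mitosis genes with a window, 12 held a CHR, against 20.2% of all 27025 genes with a window and 18.5% of the 17491 protein-coding ones. All 12 also held a CCAAT box, a pairing found in 8.97% of all genes. Of the 9 S phase genes, 1 (Mcm2) held a CHR, 8 held a CCAAT box, against 41.1% of all genes, and 4 (Mcm3, Mcm5, Mcm6 and Mcm7) held an E2F match, against 4.47%. An E2F match was present in 3 mitosis genes, Mki67, Cdk1 and Ect2. The median difference between the P5 and P1 arrays was −0.56 for the 12 mitosis genes with a CHR and −0.40 for the 5 without (Bub1, Cenpe, Nusap1, Birc5 and Melk). For the S phase genes it was −0.71 with an E2F match and −0.48 without, over 4 and 5 genes. Other contrasts ran the other way. Mitosis genes had −0.50 with an E2F match and −0.56 without, over 3 and 14 genes. On P14 against E17.5 the medians were −0.05 with a CHR and −0.23 without in mitosis genes. In S phase genes they were −0.205 with an E2F match and −0.31 without. Whether the motifs bear on the differences was not tested. A match describes letters in a window and does not show a bound site, and genes without a match may hold one elsewhere.

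**Figure D1:**
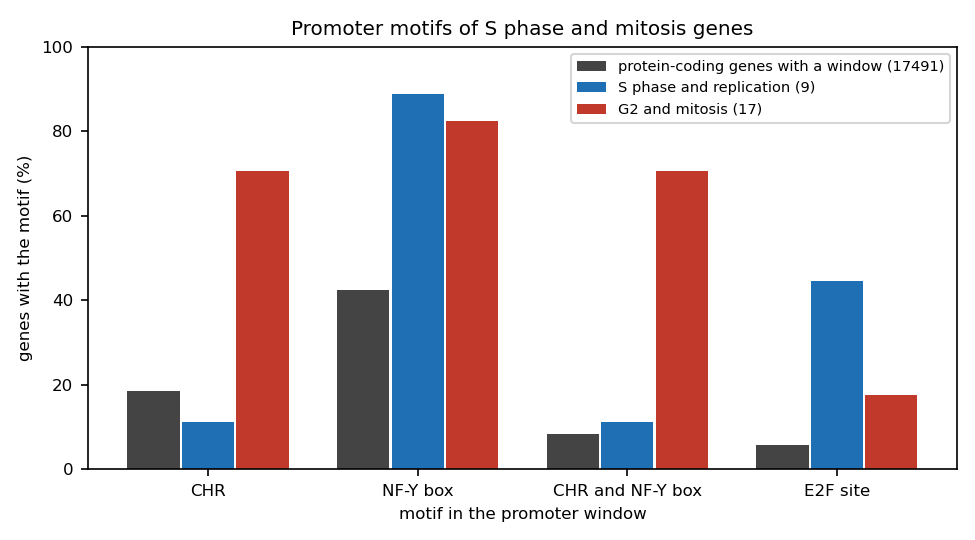
Share of genes (percent, y axis) whose promoter window holds a CHR, an NF-Y box, both, or an E2F site (x axis), for all protein-coding genes with a window (dark grey, 17491), S phase genes (blue, 9) and mitosis genes (red, 17). The CHR stood in 12 of 17 mitosis genes and 1 of 9 S phase genes.

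The 6 subunits of the MCM helicase, which unwinds DNA at the replication fork, were lowest on the array labelled P5. Mcm7 read 9.87, 9.11, 8.39 and 8.71. It was highest at E17.5 and showed the largest step of the 37 members between E17.5 and P1, −0.76, with −1.48 (2.79-fold lower) for P5 and −1.16 (2.23-fold lower) for P14 against E17.5. Mcm6 read 8.57, 8.44, 7.56 and 8.44, so that the P5 array alone was low (−1.01 against E17.5, −0.88 against P1) and the other 3 arrays lay within 0.13. In whole tissue, fewer dividing cells and less RNA per cell cannot be told apart. Mcm4 read 9.12, 8.92, 8.21 and 8.68, and Mcm5 read 9.41, 9.35, 8.65 and 9.13, both with P5 lowest and P14 between P5 and P1. Mcm2 (9.13, 9.16, 8.59 and 9.14) and Mcm3 (7.76, 7.77, 7.30 and 7.75) held nearly 1 level on the other 3 arrays and were lower on the P5 array. Against P1, the P5 array differed by −0.47 to −0.88 across the 6 subunits, while P14 differed from P1 by 0.00 to −0.40.

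Genes that supply the fork showed the same order of arrays with unequal sizes. Rrm2, the regulated subunit of ribonucleotide reductase, which makes deoxynucleotides, read 9.49 at E17.5, 8.93 at P1, 7.96 on the P5 array and 8.71 on the P14 array. Its P5 value was 2.89-fold below E17.5, a difference of −1.53 and the most negative of the 37 members. The partner subunit Rrm1, which is less tied to S phase, read 10.07, 9.85, 9.47 and 9.76, a P5 difference of −0.60. Tyms, the enzyme that makes thymidylate, read 8.46, 7.97, 7.49 and 7.96 and already differed by −0.49 at P1. Pcna, the sliding clamp, read 11.05, 11.04, 10.67 and 10.86, and the difference on the P5 array, −0.38, was the smallest of the S phase group. A second probe set of Pcna gave 11.05, 11.05, 10.65 and 10.85, the same course.

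**Figure D2:**
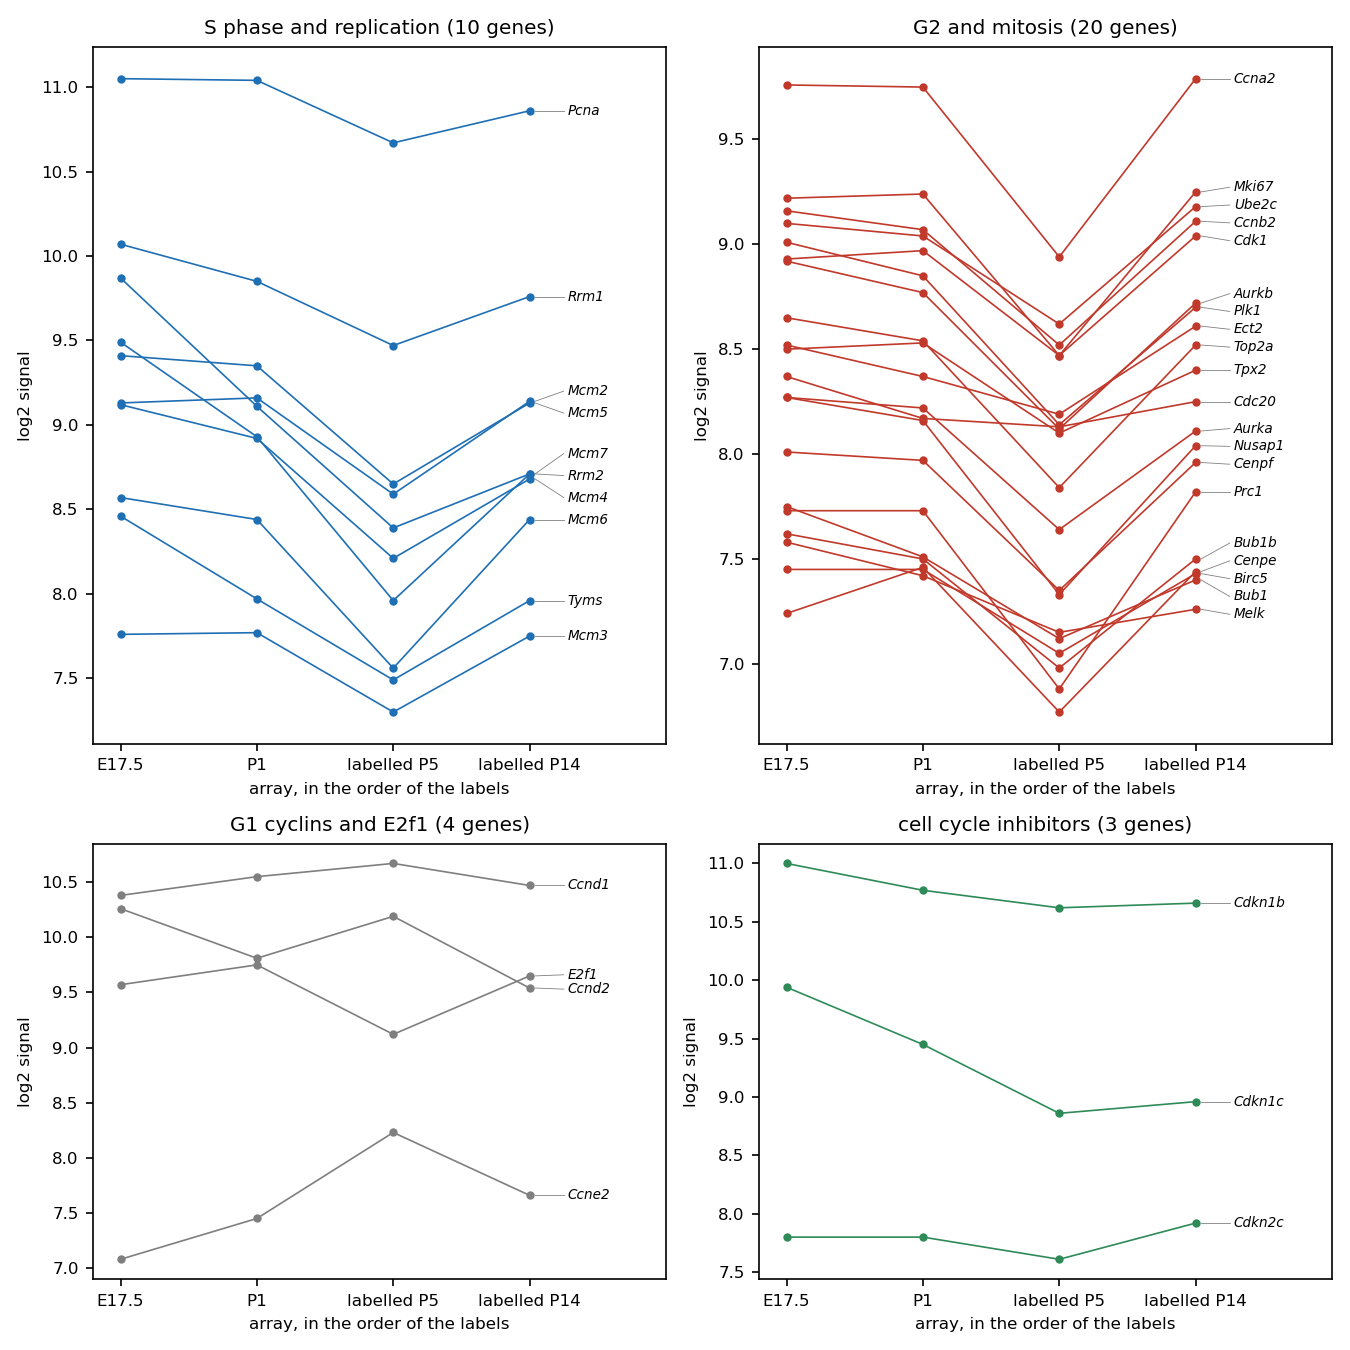
Log2 signal (y axis) of each of the 37 genes on each array (x axis, in the order of the labels), in 4 panels by group; points joined by a line are 1 gene, and each point is 1 array. All 10 S phase genes and all 20 mitosis genes have their lowest point on the array labelled P5.

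Mitosis genes were lowest on the P5 array. A measure chosen after seeing the values set the gap from P5 to the next array against the range of E17.5, P1 and P14. The gap was wider in 16 of 20, beside 18.2% of named genes. Only a gene lowest on P5 can meet this measure, and 3623 of the 8141 named genes lowest there alone did. The exceptions among the mitosis genes were Cdc20, Bub1, Melk and Ect2. Mki67, the marker of cycling cells that coats mitotic chromosomes, read 9.22, 9.24, 8.47 and 9.25. The 3 arrays other than P5 spanned 0.03, and P5 lay 0.75 below the lowest of them. Ccna2, the cyclin of S phase and G2, read 9.76, 9.75, 8.94 and 9.79, with P5 at −0.81 against P1 and P14 at 0.04. Cdk1, the kinase that starts mitosis, read 8.93, 8.97, 8.47 and 9.04, and its cyclin Ccnb2 read 9.16, 9.07, 8.52 and 9.11. In both, P5 was the single low array. Top2a, the topoisomerase that untangles sister chromatids, read 8.65, 8.54, 7.84 and 8.52. Its second probe set, far lower on the scale, read 3.82, 3.79, 4.10 and 4.04 and went the other way on P5, so the 2 probe sets disagreed.

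Kinases and spindle proteins followed. Plk1, the Polo kinase, read 9.01, 8.85, 8.14 and 8.70, and Aurkb, the Aurora kinase of the chromosome passenger complex, read 8.92, 8.77, 8.12 and 8.72. For both of these kinases the P5 array was about as far below P1, at −0.71 and −0.65. Aurka, the Aurora kinase of spindle poles, read 8.27, 8.22, 7.64 and 8.11, and Tpx2, which activates it, read 8.50, 8.53, 8.10 and 8.40. Nusap1, a microtubule bundling protein, read 8.27, 8.16, 7.33 and 8.04, with P5 at −0.94 against E17.5, the most negative of the mitosis group. Prc1, which crosslinks the midzone of the spindle, read 7.73, 7.73, 6.88 and 7.82; it gave the widest gap of the group between P14 and P5, 0.94. Birc5, the survivin subunit of the passenger complex, read 7.45, 7.45, 7.05 and 7.43, identical at E17.5 and P1.

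At the kinetochore and in the spindle checkpoint, Cenpe, a kinetochore motor, read 7.24, 7.46, 6.77 and 7.44, and was the member of the mitosis group with the most positive P1 difference, 0.22. Cenpf, another kinetochore protein, read 8.01, 7.97, 7.35 and 7.96. Bub1b and Bub1, both of the checkpoint that delays anaphase, read 7.62, 7.50, 6.98 and 7.50 for the former and 7.75, 7.51, 7.12 and 7.40 for the latter. All 4 were lowest on the P5 array, and in Bub1 the E17.5 array was also above the others. Cdc20, which activates the anaphase-promoting complex, was an exception in size, at 8.37, 8.17, 8.13 and 8.25, with P5 only −0.04 from P1. Ube2c, the ubiquitin-conjugating enzyme of that complex, read 9.10, 9.04, 8.62 and 9.18. Ect2, the exchange factor that starts cytokinesis, read 8.52, 8.37, 8.19 and 8.61, and the kinase Melk read 7.58, 7.42, 7.15 and 7.26. Melk was the lowest of the group on the P14 array relative to E17.5 apart from Bub1, at −0.32 and −0.35.

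The S phase and mitosis groups shared the low P5 array and stood apart in description on the other arrays. Every one of the 10 S phase and 20 mitosis genes had its lowest value on P5 alone, as did 34 of all 37 members, against 40.8% of all named genes. The E17.5 array alone was highest in 8 of the 10 S phase genes and 11 of the 20 mitosis genes, against 31.1% of named genes. By the same measure as above, the gap from P5 up to the next lowest array was wider than the range of the other 3 arrays in 16 of 20 mitosis genes and 5 of 10 S phase genes, against 18.2% of named genes. Only genes lowest on P5 can meet this measure. Among the 8141 named genes lowest there alone, 3623 did, a share near that of the S phase genes. In the mitosis group the median gap was 0.49 and the median range of the other arrays 0.14, and in the S phase group these were 0.47 and 0.29. On the P14 array all 10 S phase genes lay between P1 and P5, and 12 of 20 mitosis genes did, where a tie counts as between. Mcm6 and Bub1b were level with P1. Of the 19938 named genes 10761 did, a share near that of the mitosis genes. Leaving the P5 array out, 8 of 10 S phase genes and 10 of 20 mitosis genes were lowest on P14, against 34.8% of named genes. Whether the groups differ in this could not be tested with 1 array per age.

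As medians, S phase genes differed from E17.5 by −0.16 at P1, −0.83 on P5 and −0.29 on P14, where all named genes had −0.03, −0.07 and 0.00. Mitosis genes gave −0.07, −0.63 and −0.07. Against P1 the medians on the P5 array were −0.63 and −0.56 for the S phase and mitosis groups, with −0.03 for all named genes. The P14 array differed from P1 by −0.13 and −0.01, with 0.02 for all named genes. Between P14 and P5 the medians were 0.47 and 0.56, with 0.04 for all named genes. Centring the arrays on the median of named probe sets would shift the P5 array by −0.11 and the P14 array by −0.05 relative to E17.5, the former smaller than any P5 median of the S phase and mitosis groups. The mitosis median on P14 against E17.5, −0.07, is close in size to the P14 shift, and the sign of the P14 differences of Mki67, Ccna2 and Mcm2 turns with the centring.

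**Figure D3:**
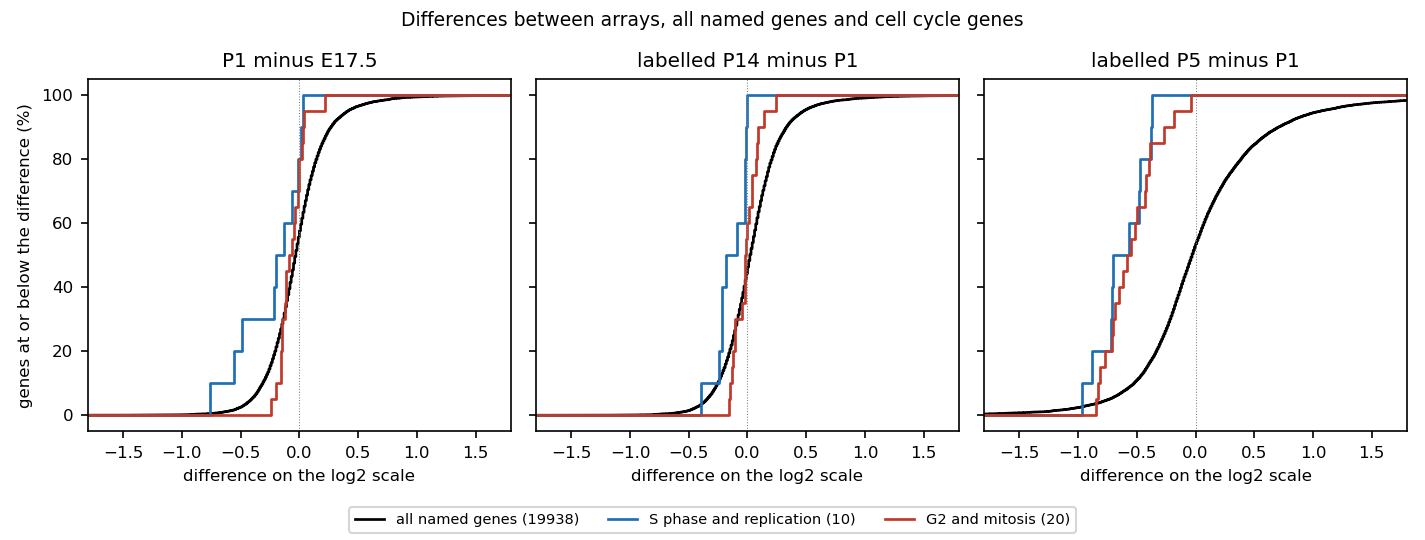
Cumulative share of genes (percent, y axis) at or below each difference (log2 scale, x axis) for P1 minus E17.5, labelled P14 minus P1 and labelled P5 minus P1; black, all 19938 named genes; blue, 10 S phase genes; red, 20 mitosis genes. In the panel for P5 minus P1 both coloured curves lie left of 0, with medians of −0.63 and −0.56, and in the panel for P14 minus P1 the medians are −0.13 and −0.01.

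Few members reached a 2-fold difference. On P5 against E17.5, 4 members were at least 2-fold lower (Mcm6, Mcm7, Rrm2 and Cdkn1c), against 3.37% of named genes, and 1 was higher (Ccne2), against 7.04%. On P14 against E17.5, Mcm7 alone was 2-fold lower, against 0.742%, and none was higher, against 2.73%. Between P1 and E17.5 no member passed in either direction, where 0.166% of named genes were lower and 0.502% higher. No member passed in P5 against P1 (2.43% of named genes lower, 5.52% higher), in P14 against P1 (0.0853% and 0.823%) or in P14 against P5 (2.75% and 1.3%). With the arrays centred, the members 2-fold lower numbered 7 on P5 and 2 on P14 against E17.5, 1 was lower on P5 against P1, and 1 was higher on P14 against P5. The shares of named genes were not recounted with the arrays centred. At a size of 1.5-fold, 20 members were lower on P5 than at E17.5, against 10.3% of named genes: 7 S phase genes, 12 mitosis genes and the inhibitor Cdkn1c. Higher by that size was Ccne2 alone, against 13.5%. At P1 against E17.5, Mcm7 alone was 1.5-fold lower, against 1.42%, and none was higher, against 2.43%. On P14 against E17.5, 4 were lower (Mcm7, Rrm2, Ccnd2 and Cdkn1c), against 4.75%, and none higher, against 6.98%. Against P1, 16 members were 1.5-fold lower on the P5 array, against 8.15%, and 1 was higher, against 12.8%. None was lower or higher by that size on P14 against P1, beside 0.863% and 3.1% of named genes. On P14 against P5, 11 members were 1.5-fold higher (2 S phase and 9 mitosis genes), against 5.72%, and 1 was lower, against 8.08%.

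The only error the files allow is the scatter among probe sets that share a gene, over 999 genes with more than 1, which holds probe noise and not the spread between pools. Its standard deviation for 1 probe set was 0.14 (P1), 0.26 (P5) and 0.17 (P14) for differences from E17.5, and 0.25 for P5 minus P1. Members lower by more than that were 10 of 10 S phase and 18 of 20 mitosis genes in P5 against P1, all but Cdc20 and Ect2, where 26.3% of named genes were, and 10 of 10 and 19 of 20 in P5 against E17.5, where 30.4% were. In P14 against E17.5 they were 7 of 10 and 5 of 20, against 28.3%, and in P1 against E17.5 they were 5 of 10 and 6 of 20, against 28.5%. Thus the differences of the mitosis genes at P1 and on P14 were mostly within the spread between probe sets. Their shares lower by more than it were near those of all named genes. Over probe sets at or above the level median that standard deviation was smaller, 0.11 (P1) and 0.13 (P14), and members were not counted by it.

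**Figure D4:**
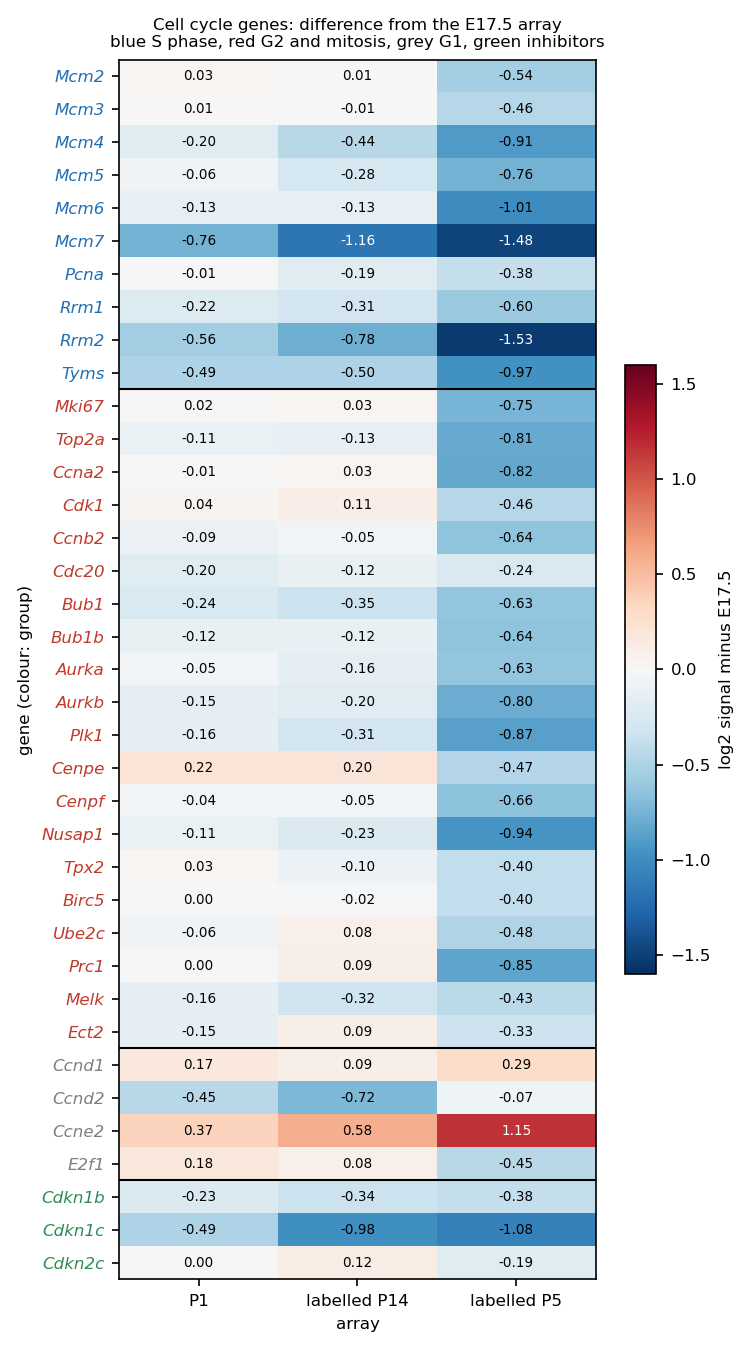
Difference from the E17.5 array (log2 scale, number and colour in each cell) for the 37 genes (rows, blue names for S phase, red for G2 and mitosis, grey for G1, green for inhibitors) on the arrays P1, labelled P14 and labelled P5 (columns). The P5 column is negative in 35 of 37 rows, beside 56.8% of all named genes, and the exceptions are Ccnd1 and Ccne2.

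Of the 4 G1 regulators, E2f1 was lowest on P5 and the 3 cyclins were not. Ccnd1, the cyclin that couples growth signals to the cycle, read 10.38 at E17.5, 10.55 at P1, 10.67 on the P5 array and 10.47 on the P14 array, highest where the mitosis genes were lowest. For Ccnd1 the step from P1 to P5, 0.12, was within the probe set standard deviation of 0.25 for P5 minus P1. Its relative Ccnd2 read 10.26, 9.81, 10.19 and 9.54, with E17.5 and P5 the high arrays. Ccne2, an E-type cyclin that acts with CDK2 at the entry to S phase, read 7.08, 7.45, 8.23 and 7.66. It was the member with the most positive difference, 1.15 on P5 against E17.5 (2.22-fold higher), with E17.5 the low array. E2f1, an activator of S phase genes, read 9.57, 9.75, 9.12 and 9.65; its P5 difference from P1 was −0.63.

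All 3 inhibitors found had their lowest value on P5, as did 40.8% of named genes, but P14 lay only 0.04 above P5 in Cdkn1b and 0.10 above it in Cdkn1c. In Cdkn2c alone was that step, 0.31, beyond the probe set standard deviation of 0.21 for P14 against P5. Cdkn1c, a Cip/Kip inhibitor of cells leaving the cycle, read 9.94, 9.45, 8.86 and 8.96. On P5 and P14 the signal was low, 2.11-fold and 1.97-fold below E17.5, and P1 lay between. Cdkn1b, the Cip/Kip inhibitor that keeps differentiated cells out of the cycle, read 11.00, 10.77, 10.62 and 10.66, with E17.5 highest. A second probe set of Cdkn1b read 8.11, 8.08, 8.01 and 8.04, the same order with smaller steps. Cdkn2c, an INK4 inhibitor of CDK4 and CDK6, read 7.80, 7.80, 7.61 and 7.92, a range within 0.31.

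Further cell cycle genes, from lists of textbook roles drawn up with earlier results of these data known, were read beside the shares of all named genes, which were 40.8% for the lowest value on P5 alone and 3.37% and 7.04% for 2-fold lower and higher on P5 against E17.5. Of 46 other replication genes, 30 were lowest on P5 alone, with a median of −0.32 against E17.5, and 7 were 2-fold lower and none higher. Gins1, a subunit of the GINS part of the helicase, read 8.49, 7.61, 6.36 and 6.79 (4.38-fold lower on P5 than at E17.5), Rfc3 of the clamp loader read 9.33, 8.86, 7.66 and 8.24, and Chaf1b of chromatin assembly read 8.78, 8.67, 7.44 and 8.10. Those at the other end were Rpa1, Orc5 and Gmnn, with P5 differences from E17.5 of 0.36, 0.13 and 0.11. Gins1 and Rfc3 were stepwise lower from E17.5 through P1 to P14 and P5.

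Of 69 other mitosis genes, 61 were lowest on P5 alone, with a median of −0.38 against E17.5, and 3 were 2-fold lower and 1 higher, the former share near the 3.37% of all named genes. Beside the 61, 40.8% of named genes were lowest there. Pimreg read 9.47, 8.30, 7.38 and 8.13, Lmnb1, a lamin of the nuclear envelope, read 10.23, 9.79, 8.27 and 9.04, and Cks1b, a partner of CDK1, read 9.80, 9.68, 8.51 and 9.32. The gene that went the other way was Anln, which encodes the cytokinesis protein anillin and is also known from myelinating oligodendrocytes, at 7.57, 7.44, 10.20 and 7.37. It was 6.19-fold higher on P5 than at E17.5, with Ube2t and Tacc3 next at 0.20 and 0.12. Leaving the P5 array out, 35 of the 46 replication genes and 34 of the 69 mitosis genes were lowest on P14, beside 34.8% of named genes.

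Other genes of G1 and S phase control were mixed, with 10 of 21 lowest on P5 alone, close to the 40.8% of all named genes, and a median of −0.21 against E17.5. Mycn, a growth factor effector of progenitors, read 9.33, 8.92, 7.89 and 8.70, E2f7, a repressor of E2F targets, read 8.74, 8.56, 7.49 and 8.23, and Myc read 11.07, 11.34, 10.09 and 11.08. Ccne1, the other E-type cyclin, read 8.80, 8.86, 10.26 and 9.43 and was 2.75-fold higher on P5 than at E17.5, the same direction as Ccne2. Tfdp2, a partner of E2F factors, differed there by 0.66 and the retinoblastoma relative Rbl2 by 0.48. In this list 2 genes were 2-fold lower and 1 higher, beside 3.37% and 7.04% of named genes.

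Among 18 other inhibitors and checkpoint genes, 5 were lowest on P5 alone, a smaller share than the 40.8% of all named genes, and the median against E17.5 was −0.01, beside −0.07 for all named genes. Ccng2, a cyclin linked to arrest, read 10.31, 9.64, 8.97 and 9.20 (2.53-fold lower on P5 than at E17.5), the antiproliferative gene Btg1 differed by −0.97 and the checkpoint kinase Chek1 by −0.75. Wee1, which holds CDK1 inactive, read 8.81, 8.71, 10.18 and 8.89, 2.58-fold higher on P5. The stress sensors Gadd45b (7.81, 7.75, 9.15 and 8.17) and Gadd45g (7.82, 7.47, 8.42 and 7.78) were also highest on P5. The list had 1 gene 2-fold lower and 2 higher, beside 3.37% and 7.04%.

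**Figure D5:**
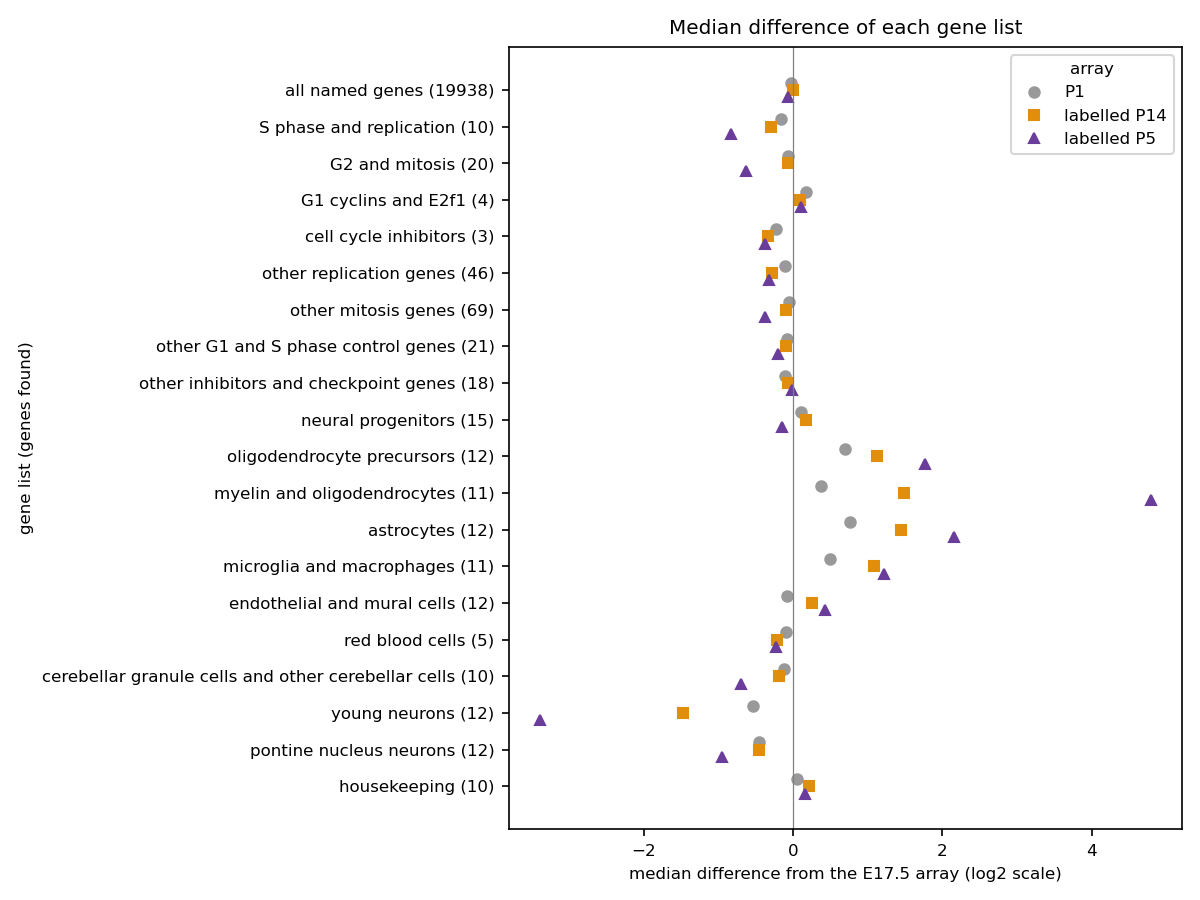
Median difference from the E17.5 array (log2 scale, x axis) of each gene list (y axis, number of genes found in brackets) on P1 (grey circles), labelled P14 (orange squares) and labelled P5 (purple triangles). The S phase and mitosis lists sit left of 0 on P5, at −0.83 and −0.63, while the myelin list lies at 4.80.

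Markers of cell types moved with the same arrays, and their part in the cell cycle differences was not tested. For 11 myelin and oligodendrocyte genes the summed linear signal ran from 2767 at E17.5 and 4399 at P1 to 70475 on P5 and 9526 on P14. All 11 were highest on P5, beside 6227 of the 19938 named genes. For 12 astrocyte genes it was 10335, 18643, 41722 and 29739, and for 12 oligodendrocyte precursor genes 8366, 13311, 25088 and 17266. Within the precursor list P5 minus P1 ran from −1.22 (Pcdh15) to 3.53 (Enpp6), with 10 of 12 genes higher on P5, beside 9255 of the 19938 named genes. Lhfpl3 was also lower, at −0.38, and Pdgfra differed by only 0.01, so the sum does not stand for each gene of the list. Pdgfra, the growth factor receptor of oligodendrocyte precursors, read 9.75, 10.69, 10.70 and 10.94. For 11 microglial genes the sum was 3422, 4922, 7879 and 7005, and for 12 endothelial and mural genes 7199, 6990, 11275 and 10396. Young neuron genes, 12 in number, summed to 58736, 49675, 16550 and 33797, with 11 of 12 lowest on P5, against 40.8% of named genes. Among the young neuron genes Dcx read 12.97, 12.88, 9.79 and 12.14 and Sox11 read 12.52, 11.75, 8.91 and 10.71.

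Progenitor genes, 15 in number, summed to 38839, 42828, 31461 and 41487, with 8 lowest on P5 and 7 lowest at E17.5. Of all named genes 40.8% were lowest on P5 alone, and 4402 of 19938 at E17.5 alone. Sox2 read 9.65, 10.24, 10.30 and 10.40, Nes read 9.41, 8.94, 8.31 and 8.36, and Vim read 12.80, 12.69, 11.73 and 12.70, so that Vim had the course of the mitosis genes and Sox2 did not. Cerebellar genes, 10 in number and some of them shared with the rhombic lip from which pontine neurons come, summed to 24123, 21281, 14412 and 19092, with 7 lowest on P5, against 40.8% of named genes. That sum rests mostly on Zic1 and Zic2, at 13.30 and 13.29 at E17.5. Gabra6 (5.61, 5.87, 8.34 and 6.34) and Cbln3 (6.87, 6.91, 7.52 and 7.08) went the other way, highest on P5. Red cell genes, 5 in number, summed to 918, 774, 810 and 830. The 12 pontine neuron genes summed to 29351, 23798, 21543 and 22221. Housekeeping genes, 10 in number, summed to 53804, 54060, 54816 and 54124, but these sums rest on a few high probe sets. On P5 3 of the 10 were at least 2-fold higher than at E17.5, against 7.04% of named genes, within a range of −0.60 to 1.47. By the same sum the mitosis genes gave 7550, 7222, 4887 and 7254 and the S phase genes 7596, 6594, 4532 and 5909. In the other lists too, a sum leans on the highest probe sets. As a median, P5 minus P1 was −0.10 in the progenitor list and −2.325 in the young neuron list, beside −0.03 for all named genes. Presence of a marker was not called, because background was not measured and the lowest signal of any probe set was 1.84.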

How the data were processed

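The table deposited by the authors holds 1 normalised log2 signal for each probe set and array. Affymetrix Expression Console made it, per the submitters' processing notes, but which version, summary and normalisation it ran is not given in the sources used here. That the scale is log2 follows from the values, which run from 1.84 to 14.72. RNA was taken up in an organic reagent, cleaned on a column and turned into biotin-labelled sense-strand cDNA, per the labels' protocols. Of 35556 probe sets, the platform's gene table named 21789 with 1 symbol and 1621 with several, and 12146 were not in it. Each of 19938 genes was represented by its highest probe set by mean over the 4 arrays, with no level filter and no rescaling. Whether all genes shifted together on an array cannot be read from normalised values whose method is unknown.

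With 1 array per age no test was run. Genes were counted by size (2-fold, alternatively 1.5-fold) beside the same share of all named genes, and lists were described by medians. The members and lists were chosen with earlier results of these data known. All members are given; of each pathway list, the up to 3 genes with the most negative and the most positive difference of P5 from E17.5; of each marker list, counts, median or sum and up to its first 3 genes found. Mog was named for the check of the labels, and a few further marker genes where members of a list went opposite ways. Alternatives were a 1.5-fold size, a level filter at 8.41 (the median of single-symbol probe sets), the mean of all probe sets of a gene, centring, quantile normalisation, raising values under the lower quartile to it, and the E17.5 and P1 arrays alone. Leaving out the P5 array and the gap measure were chosen after seeing the data. The promoter windows come from RefSeq's table for GRCm38.p6. The counting scripts were tested on simulated data and run in Python 3.11.15 with pandas 2.3.3, numpy 2.4.6 and matplotlib 3.10.9. The number of arrays limits the precision.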

Additional observations from a re-analysis of the deposited data

How the results depend on the processing

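No paired analysis was possible because each age had 1 array, and leaving out a replicate was not possible for the same reason. At a size of 1.5-fold in place of 2-fold, the members lower numbered 1 at P1, 20 on P5 and 4 on P14, each against E17.5. They numbered 16 lower and 1 higher on P5 relative to P1, and 1 lower and 11 higher on P14 relative to P5. With each array centred on its median, 7 members were 2-fold lower on P5 and 2 on P14 against E17.5, and 1 was lower on P5 against P1 and 1 higher on P14 against P5. The shares of named genes were not recounted under centring. A level filter left 20 members: none was then 2-fold higher on P5 against E17.5 (0 in place of 1), 18 were lowest on P5 alone and 1 on E17.5 alone, the inhibitor medians were −0.73 (P5 against E17.5), −0.66 (P14 against E17.5) and −0.30 (P14 against P1), and the other inhibitors and checkpoint genes had −0.25 on P14 against E17.5. Without the array labelled P5, 21 members were lowest on P14, against 34.8% of named genes. Taking the mean of its probe sets, Top2a differed on P5 by −0.27 from E17.5 and −0.20 from P1, and its P14 difference from E17.5 turned from −0.13 to 0.05. Under the alternatives 26 values changed sign, all of them within 0.13 of 0 before the change, among them the mitosis median on P14 against E17.5 (0.03 under the level filter) and the G1 median on P5 against E17.5 (−0.07 under it). No member and neither the S phase nor the mitosis median changed sign on P5 against P1. After quantile normalisation 34 members were again lowest on P5 alone. The share of named genes lowest on P5 alone was not recounted after quantile normalisation or the level filter.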
